A study of Homo sapiens with 27 samples.

Results

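The 6 genes described here encode the receptors that bind estrogens and the orphan receptors related to them. They are ESR1 and ESR2, which encode the estrogen receptors ERα and ERβ, ESRRA, ESRRB and ESRRG, which encode the estrogen-related receptors (ERRs), and GPER1, which encodes a G protein-coupled estrogen receptor of the membrane. They were picked by name from the 60619 genes of the deposited table. All 6 passed the filter on low counts in every fit. RNA-Seq libraries came from MM134 (MDA-MB-134VI) and SUM44, human ER-positive cell lines of invasive lobular breast carcinoma (ILC). There were 9 groups. In MM134 they were the parental cells and 4 variants named LTED-A, -B, -D and -E, and in SUM44 they were the parental cultures SUM44PE and SUM44F and a pair of variants, LTED-A and -B. SUM44F is a culture of SUM44PE that had been moved to the serum-containing medium used for MM134, and it was the parental culture of the SUM44 LTED variants. LTED (long-term estrogen-deprived) variants were derived separately, in medium with charcoal-stripped serum, as models of resistance to aromatase inhibitors. Parental cells spent the last 3 days before collection in that hormone-deprived medium, so that no group was sampled in full serum, and no genetic change was made in any group. Each group had 3 libraries, from wells seeded in parallel, so that the p-values below measure the spread between wells of 1 culture and each variant stands for 1 derivation.

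ERα and ERβ are nuclear receptors that bind estradiol, pair up and recruit coactivators to estrogen response elements in DNA. In ER-positive breast carcinoma, ERα drives proliferation and is the target of endocrine therapy. The ERRs share their DNA-binding domain with the estrogen receptors but bind no estrogen, and they act with the coactivators PGC-1α and PGC-1β on genes of mitochondrial and lipid metabolism. GPER1 is not a nuclear receptor. It spans the membrane and signals through adenylyl cyclase and shedding of growth factor ligands to the EGF receptor.

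The P-box, a short stretch of the first zinc finger that reads the bases of the response element, is shown because it marks the split between the estrogen receptors and the ERRs. The sequences are coding strands on hg38, each from the gene's representative transcript, and the capitals mark the third codon of the stretch. That codon stands for glycine in ESR1 and ESR2 (GGC and GGA) and for alanine in the ERR genes (GCC in ESRRA and ESRRG, GCT in ESRRB).
ESR1 (chr6:151842748-151842777, plus strand, exon 2): tgtgagGGCtgcaaggccttcttcaagaga
ESR2 (chr14:64279991-64280020, minus strand, exon 3): tgtgaaGGAtgtaaggccttttttaaaaga
ESRRA (chr11:64307465-64307494, plus strand, exon 2): tgtgagGCCtgcaaagccttcttcaagagg
ESRRB (chr14:76439711-76439740, plus strand, exon 2): tgcgagGCTtgcaaggccttcttcaagagg
ESRRG (chr1:216677086-216677115, minus strand, exon 2): tgtgaaGCCtgcaaggcattcttcaagagg
Over these 30 bases ESR2 differed from ESR1 at 6, ESRRA at 3, ESRRB at 4 and ESRRG at 4. The transcripts of the members had 0 stretches of 31 bases in common.

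Other genes did share sequence with some members. Of the stretches of 31 bases in ESRRA transcripts, 13.08% also occurred on the same strand of another gene, chiefly its pseudogenes ESRRAP1 and ESRRAP2. The 3′ end of ESRRA also overlaps TRMT112, a gene on the other strand, over 284 exon bases, and the strand setting of the counting was not given in the sources used here. For ESR2, 5.59% of stretches were shared, chiefly with an overlapping lncRNA gene (ENSG00000214770). The share was 0.76% for ESR1, 1.11% for ESRRG and 0 for ESRRB and GPER1.

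Depth ran from 28583554 to 134882175 estimated counts (median 44018412). In SUM44 LTED-A, replicates 2 and 3 were closer to each other than sampling noise allows for (chi-square per degree of freedom 0.312, against 2.35 to 58.1 for the other 26 pairs of replicates) and were counted as 1 sample, their mean, which leaves 2 samples of this variant. The luminal keratins KRT8, KRT18 and KRT19, EPCAM and the transcription factors FOXA1 and GATA3 were abundant in every library (the lowest value was 77.1 CPM, for GATA3, where CPM is the count scaled to a common library total), and the other luminal markers were lower (ELF3 at 15.2 to 152 CPM, MUC1 at 0.404 to 25.1). ELF3, an epithelial transcription factor, rose in all 4 MM134 variants (log2 fold change 0.77 to 1.65) and fell in both SUM44 variants (-0.68 and -1.20). By the threshold for differential expression given below, 2 to 4 of the 8 luminal markers were higher and at most 1 lower in each MM134 variant. In SUM44, 2 were higher and 1 lower in LTED-A, and 1 higher and 2 lower in LTED-B. Without replicate 1 of SUM44F, 0 were higher in these, and 1 and 2 were lower. Of all genes, 6.39% to 10.5% were higher and 7.28% to 10.3% lower in a variant. Replicate 1 of SUM44F stood apart. The summed level of 5 fibroblast markers (COL1A1, COL1A2, DCN, LUM and PDGFRB) was 226 CPM there, against 8.76 and 7.92 in the other SUM44F libraries and 5.0 to 30.4 in the remaining groups. Beside most fold changes of the receptors from SUM44F, values without this library are given. Means and shares in SUM44F, and GPER1 and ESRRB between SUM44PE and SUM44F, are given only with all libraries. Summed markers of leukocytes, mostly ITGAM, were higher in SUM44F (38.2 to 51.7) than in any other group (at most 25.9), as were those of endothelium (25.8 to 44.8, against at most 11.1) and of basal epithelium (2.83 to 3.53, against at most 1.89). Their part in the differences from SUM44F was not tested.

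ESR1 was the most abundant of the 6 transcripts in every group and ESRRA followed it. Levels are given as CPM after 1 TMM scaling of all libraries, and, to compare genes, as CPM per kb of merged exons. Per kb, ESR1 stood at 26.4 ± 0.803 (SD, n = 3) in MM134 parental cells and ESRRA at 3.41 ± 0.14. The other 4 receptors were below 1 in that group, with GPER1 at 0.30 ± 0.0394, ESRRG at 0.227 ± 0.00667, ESR2 at 0.141 ± 0.018 and ESRRB at 0.0859 ± 0.0245. In SUM44F, ESR1 reached 41.5 ± 2.3 and ESRRA 17.7 ± 1.71, and GPER1 (1.48 ± 0.278) stood above ESRRG (0.218 ± 0.045), ESR2 (0.165 ± 0.0178) and ESRRB (0.0655 ± 0.0204). ESR1 made up 67.9% of the summed level per kb of the 6 receptors in SUM44F and 91.4% in MM134 LTED-B, the lowest and highest of the groups. With the longest transcript as the length, ESR1 and then ESRRA again led in all 9 groups. The places of GPER1 and ESRRG were exchanged in MM134 parental cells and MM134 LTED-A, and their order there is therefore not settled. In these bulk samples, less RNA per cell and fewer cells that express a gene cannot be told apart.

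**Figure D1:**
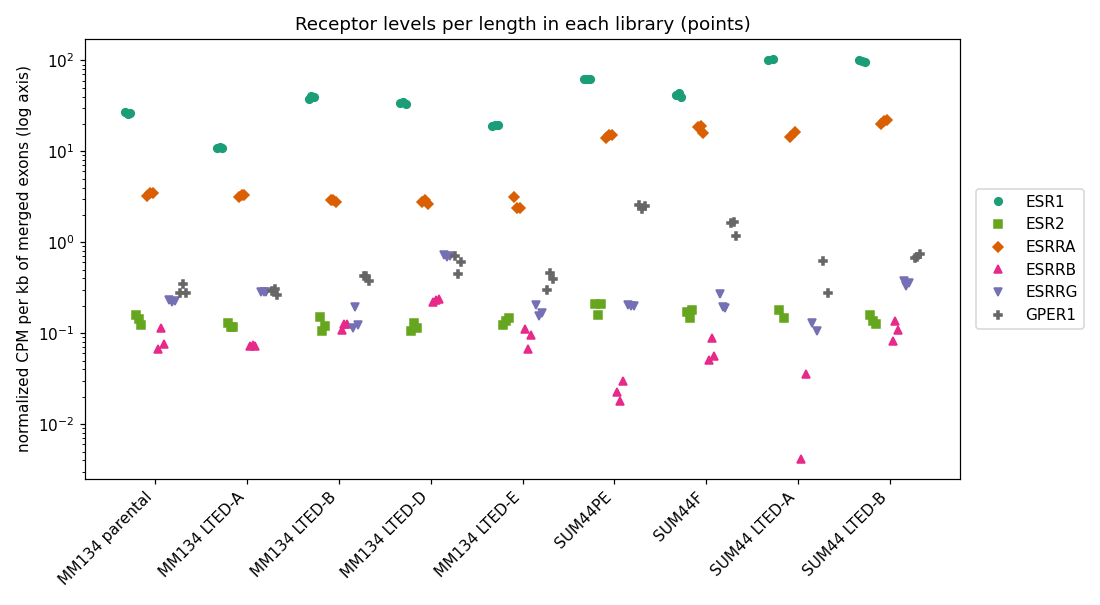
Level of each receptor per length in every library (points, log axis; normalized CPM per kb of merged exons) for the 9 groups. ESR1 lies highest and ESRRA next in all groups, and ESRRB is lowest in all but MM134 LTED-D, where ESR2 is lowest.

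ESR1 (ENSG00000091831, chr6:151656691-152129619, plus strand) moved in opposite directions in the variants. It fell in MM134 LTED-A and rose in both SUM44 variants by more than 2-fold, and the changes in the other MM134 variants were smaller. In MM134 parental cells its level was 372, 350.5 and 364 CPM in replicates 1, 2 and 3. It was 148, 153 and 150.2 CPM in MM134 LTED-A and 262, 266 and 266 CPM in LTED-E. It was 516, 552 and 538 CPM in LTED-B and 465, 473 and 460.0 CPM in LTED-D. All libraries of LTED-A and LTED-E were thus below the parental range, all libraries of LTED-B and LTED-D were above it, and no pair of these 5 groups overlapped.

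A gene was called differentially expressed (DE) where its fold change exceeded 1.5 and its adjusted p was below 0.001 in edgeR's quasi-likelihood test with Benjamini-Hochberg adjustment over all genes tested. The log2 fold change of ESR1 was -1.27 ± 0.03 (SE) in MM134 LTED-A (2.42-fold lower, edgeR adjusted p = 3.37e-17), and it was the 1 receptor of 6 that was DE in that variant, where 20.3% of all genes tested were. In LTED-B it was 0.57 ± 0.03 (1.48-fold higher, edgeR adjusted p = 5.76e-12), just under the fold limit, and 0 of 6 receptors were DE against 15.9% of all genes. Without parental replicate 1 or without LTED-B replicate 1, the values were 0.59 and 0.59 and the gene was called, so that its call in LTED-B turned on 1 library. In LTED-D it was 0.38 ± 0.03 (1.30-fold, edgeR adjusted p = 1.98e-09), and in LTED-E it was -0.44 ± 0.03 (1.36-fold lower, edgeR adjusted p = 1.87e-10), both smaller than the fold limit but larger than the spread between libraries. In LTED-E 0 of 6 receptors were DE, against 19.0% of all genes. The share in LTED-D was 17.6%, and its 3 DE receptors are described with the ERRs and GPER1.

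The span of ESR1 among the 4 MM134 variants was wider than the distance of any of them from the parental cells. From LTED-A, the lowest, to LTED-B, the highest, the level rose 3.58-fold (log2 difference 1.84), and the test of equality of the 4 variants gave an adjusted p of 1.19e-18 in edgeR. By that test 4 of 6 receptors (ESR1, ESRRB, ESRRG and GPER1) differed among the variants, against 19.6% of all genes. The call of GPER1 among the variants was lost without any 1 library of LTED-A, without LTED-D replicate 1 or 3, and with the replicate number as a block (log2 range 1.05, edgeR adjusted p = 0.0013).

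In SUM44F, ESR1 stood at 574, 600.1 and 537 CPM. In SUM44 LTED-A it was 1372 CPM in replicate 1 and 1424 CPM in the mean of replicates 2 and 3. In SUM44 LTED-B it was 1380, 1365 and 1320 CPM. Every LTED sample was far above the highest SUM44F library, and the ranges of the LTED variants overlapped. The log2 fold change was 1.30 ± 0.11 in LTED-A (2.46-fold, edgeR adjusted p = 4.97e-06) and 1.25 ± 0.10 in LTED-B (2.38-fold, edgeR adjusted p = 2.79e-06). ESR1 was the 1 receptor of 6 that was DE in each variant, against 13.7% of all genes in LTED-A and 17.3% in LTED-B. Without SUM44F replicate 1 the values were 1.30 and 1.25, and ESR1 remained the only DE receptor in both. LTED-A and LTED-B differed by 0.05 ± 0.11, which did not pass the test (edgeR adjusted p = 0.81).

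The effect on ESR1 differed between the cell lines. Averaged over variants, the log2 effect in MM134 less the one in SUM44 was -1.47 ± 0.05 (edgeR adjusted p = 1.93e-16), or -1.49 without SUM44F replicate 1. The SE and p-value measure the spread between wells and leave out the spread among variants. The MM134 mean joins opposite changes, from -1.27 in LTED-A to 0.57 in LTED-B. In the test between the lines 2 of 6 receptors passed, ESR1 and GPER1, with opposite signs, against 20.9% of all genes.

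**Figure D2:**
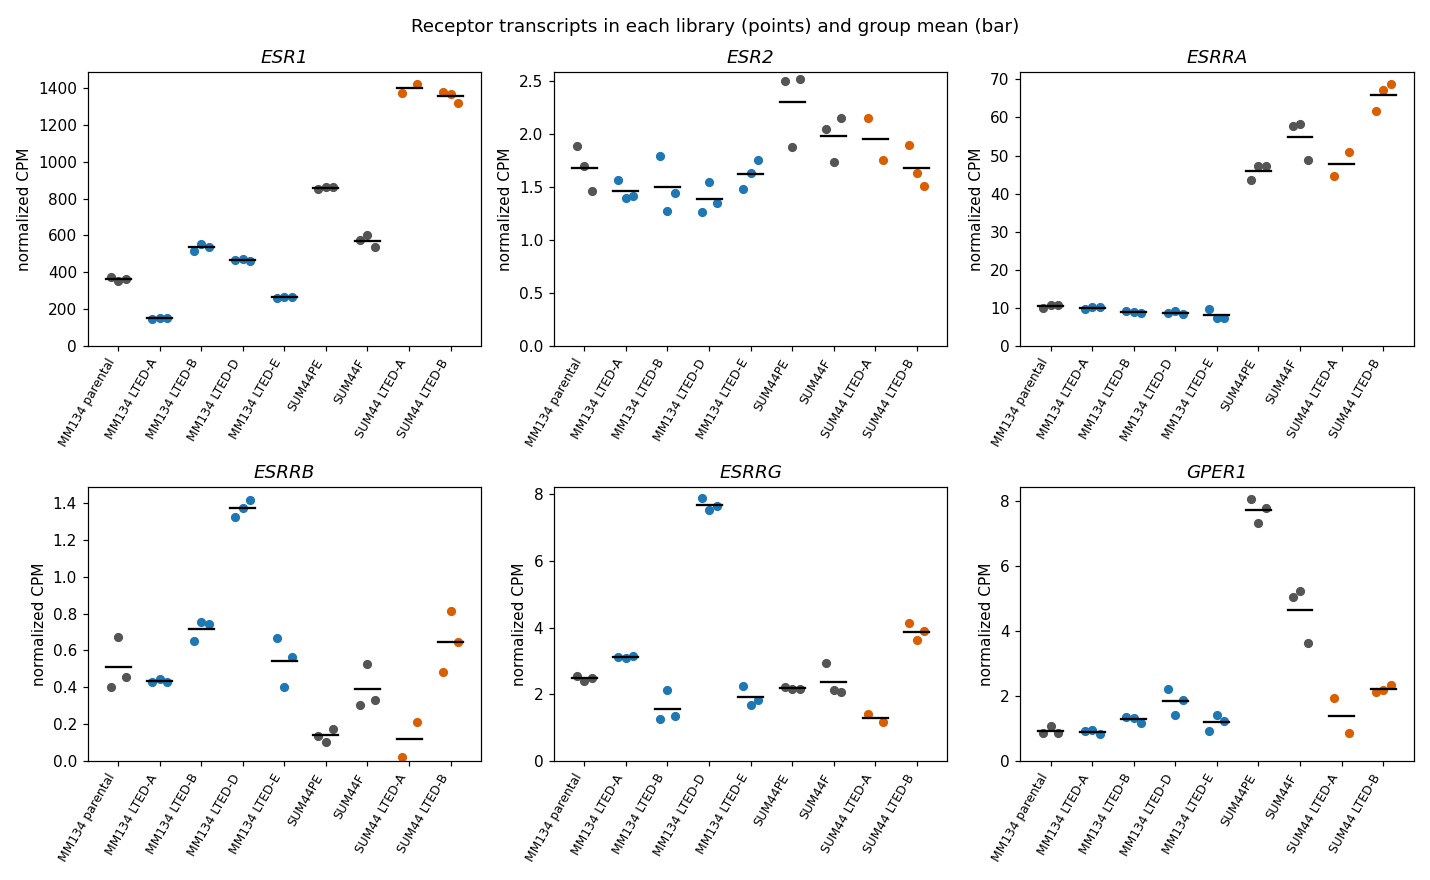
Normalized CPM (linear axes from 0) of the 6 receptors in every library (points) with group means (bars), parental groups in grey, MM134 variants in blue and SUM44 variants in orange. ESR1 spans 148 CPM in MM134 LTED-A to 1424 CPM in SUM44 LTED-A, and ESRRG in MM134 LTED-D lies above all other groups.

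Genes on either side of ESR1 were examined, since a change shared along a stretch of chromosome would not be particular to the receptor. Among the 40 nearest genes that averaged 1 CPM or more, 20 on each side, 0 had a log2 fold change below that of ESR1 in MM134 LTED-A, and their median was -0.12. In SUM44 LTED-A 36 of 40 were below ESR1, and their median was 0.25. In SUM44 LTED-B all 40 were below it, but the sides differed: the genes at lower coordinates had a median of 0.84 and those at higher coordinates a median of -0.85. Between SUM44PE and SUM44F the median of the neighbours was 0.46, and 30 of 40 were below the 0.58 of ESR1 itself.

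ESR2 (ENSG00000140009, chr14:64084232-64338112, minus strand) was low and nearly flat. ERβ is the receptor isotype that is often described as opposing ERα in breast epithelium. Its level lay between 1.26 and 2.52 CPM over all 26 samples, and the group means ran from 1.38 CPM in MM134 LTED-D to 2.30 CPM in SUM44PE, a ratio of 1.66. All 8 pairs of neighbouring groups in that order overlapped. The summed counts behind a group mean were 152 to 376, and the spread between libraries (6.43% to 17.4% of the mean) was near that expected from counting alone (9.08% to 14.3%). ESR2 passed the threshold in 0 of the 11 comparisons, with edgeR adjusted p between 0.149 and 0.932. The log2 fold change against parental cells that was farthest from 0 was -0.27 ± 0.16, in MM134 LTED-D. Relative to ESR2, ESR1 per kb was 90.1 times as high in MM134 LTED-A, the lowest ratio, and 708 times as high in SUM44 LTED-B, the highest.

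ESRRA (ENSG00000173153, chr11:64305497-64316743, plus strand) encodes ERRα, a regulator of oxidative metabolism. It was set apart by cell line rather than by LTED. In MM134 parental cells it was at 10.1, 10.8 and 10.8 CPM, and in SUM44F at 57.7, 58.4 and 48.9 CPM. The lowest SUM44 sample of any group (43.6 CPM, in SUM44PE) was above the highest MM134 library (10.8 CPM). MM134 parental cells had 5.26-fold less ESRRA than SUM44F (log2 -2.40 ± 0.09, edgeR adjusted p = 2.70e-16), or -2.36 without SUM44F replicate 1. None of the 40 neighbouring genes had as low a value, with a median of -0.18. Between these parental cells 3 of 6 receptors were DE, all lower in MM134 (ESR1, ESRRA and GPER1), against 38.1% of all genes. For ESR1 the log2 difference was -0.67 ± 0.04 (edgeR adjusted p = 3.40e-12), and it was -0.66 without that library.

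Within a line ESRRA moved little. The MM134 variants spanned 9.75 to 10.2 CPM (LTED-A), 8.53 to 9.14 CPM (LTED-B), 8.24 to 9.09 CPM (LTED-D) and 7.31 to 9.75 CPM (LTED-E). LTED-A overlapped the parental range and the other variants lay below it, with LTED-E lowest (log2 -0.37 ± 0.09, 1.29-fold, edgeR adjusted p = 0.00175), so that none was DE. In SUM44 LTED-A it was 44.6 and 51.0 CPM, which overlapped SUM44F (log2 -0.20 ± 0.10, edgeR adjusted p = 0.148), and in SUM44 LTED-B it was 61.7, 67.3 and 68.9 CPM, above all SUM44F libraries (log2 0.26 ± 0.09, edgeR adjusted p = 0.0301). Without SUM44F replicate 1 these values were -0.16 and 0.30, again below the fold limit. TRMT112, which overlaps ESRRA on the other strand, was DE with a log2 fold change of 1.11 in SUM44 LTED-B and had 0.55 in SUM44 LTED-A, and its part in the ESRRA values was not tested. The pseudogene ESRRAP2 was at 1.81 ± 0.0799 CPM in SUM44 LTED-A against 0.664 ± 0.0499 in SUM44F.

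ESRRB (ENSG00000119715, chr14:76310712-76501837, plus strand) encodes ERRβ, which is known from trophoblast and pluripotent stem cells. It was the scarcest member per kb in 8 of the 9 groups, and its summed count was 17 to 151 in a group. In MM134 parental cells it was at 0.40, 0.674 and 0.453 CPM, and in MM134 LTED-D at 1.32, 1.38 and 1.42 CPM, with no overlap. On the log2 scale the change was 1.43 ± 0.21 (2.69-fold, edgeR adjusted p = 1.20e-05), and LTED-D was higher than all other groups of the study in every library. LTED-A (0.428 to 0.445 CPM), LTED-B (0.649 to 0.755) and LTED-E (0.402 to 0.667) overlapped the parental range, and ESRRB was not DE in them. None of its 40 neighbours in LTED-D reached its fold change (median -0.10).

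In SUM44, ESRRB rested on very few counts. SUM44F libraries had 0.304, 0.527 and 0.334 CPM, and SUM44 LTED-B 0.482, 0.815 and 0.644 CPM, which overlapped. In SUM44 LTED-A replicate 1 held 1 count (0.0247 CPM) and the mean of replicates 2 and 3 held 24 (0.21 CPM), both below SUM44F. Log2 fold changes were -1.41 ± 0.55 in LTED-A (edgeR adjusted p = 0.0686) and 0.75 ± 0.43 in LTED-B (edgeR adjusted p = 0.186), and neither passed the test. Without SUM44F replicate 1 they were -1.52 and 0.62.

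ESRRG (ENSG00000196482, chr1:216503246-217137755, minus strand) encodes ERRγ, which binds many of the same metabolic genes as ERRα and has been linked to tamoxifen resistance in ILC models. It had the widest range among the MM134 variants. The MM134 parental libraries held 2.54, 2.40 and 2.49 CPM. LTED-D held 7.87, 7.52 and 7.64 CPM, about 3 times the parental level and above every other library of the study. LTED-A held 3.13, 3.10 and 3.14 CPM, also above the parental range, whereas LTED-B (1.25, 2.12 and 1.34 CPM) and LTED-E (2.25, 1.69 and 1.83 CPM) lay below it.

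The log2 fold change of ESRRG in LTED-D was 1.64 ± 0.14 (3.12-fold, edgeR adjusted p = 8.51e-09). Of its 40 neighbours on chromosome 1, 36 had a smaller fold change than ESRRG, and the median of the 40 was 0.10. The sides differed, with medians of -0.08 at lower coordinates and 0.39 at higher ones. In LTED-A, LTED-B and LTED-E the genes at higher coordinates had medians of 0.43, 0.33 and 0.17. With ESRRB and GPER1, ESRRG was 1 of the 3 receptors of 6 that were DE in LTED-D, all higher. In LTED-B the value was -0.65 ± 0.16 (edgeR adjusted p = 0.00211), which missed the threshold. LTED-B replicate 2 decided it, since without that library the value was -0.93 (edgeR adjusted p = 1.38e-05). LTED-A (0.33 ± 0.14) and LTED-E (-0.36 ± 0.15) did not pass. Among the 4 variants the range was 2.29 on the log2 scale (4.90-fold from LTED-B to LTED-D, edgeR adjusted p = 1.45e-10).

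The SUM44 variants moved ESRRG apart from each other. SUM44F held 2.95, 2.13 and 2.07 CPM. SUM44 LTED-A held 1.41 and 1.17 CPM, all below SUM44F, and SUM44 LTED-B held 4.12, 3.63 and 3.89 CPM, all above it. Against SUM44F neither change passed the threshold, at -0.89 ± 0.20 in LTED-A (edgeR adjusted p = 0.00544) and 0.71 ± 0.17 in LTED-B (edgeR adjusted p = 0.00661). Without SUM44F replicate 1, which had the highest value of its group, they were -0.72 and 0.88. The difference between the variants did pass, at -1.60 ± 0.21 (3.04-fold lower in LTED-A, edgeR adjusted p = 2.42e-04), the 1 receptor of 6 in this comparison, against 7.42% of all genes. With any of the 5 LTED samples left out it had an adjusted p of 0.00123 to 0.00367 in edgeR and was no longer called, with values between -1.47 and -1.71. Without SUM44F replicate 1 it was -1.60 again and was called. None of its 40 neighbours had as low a value.

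**Figure D3:**
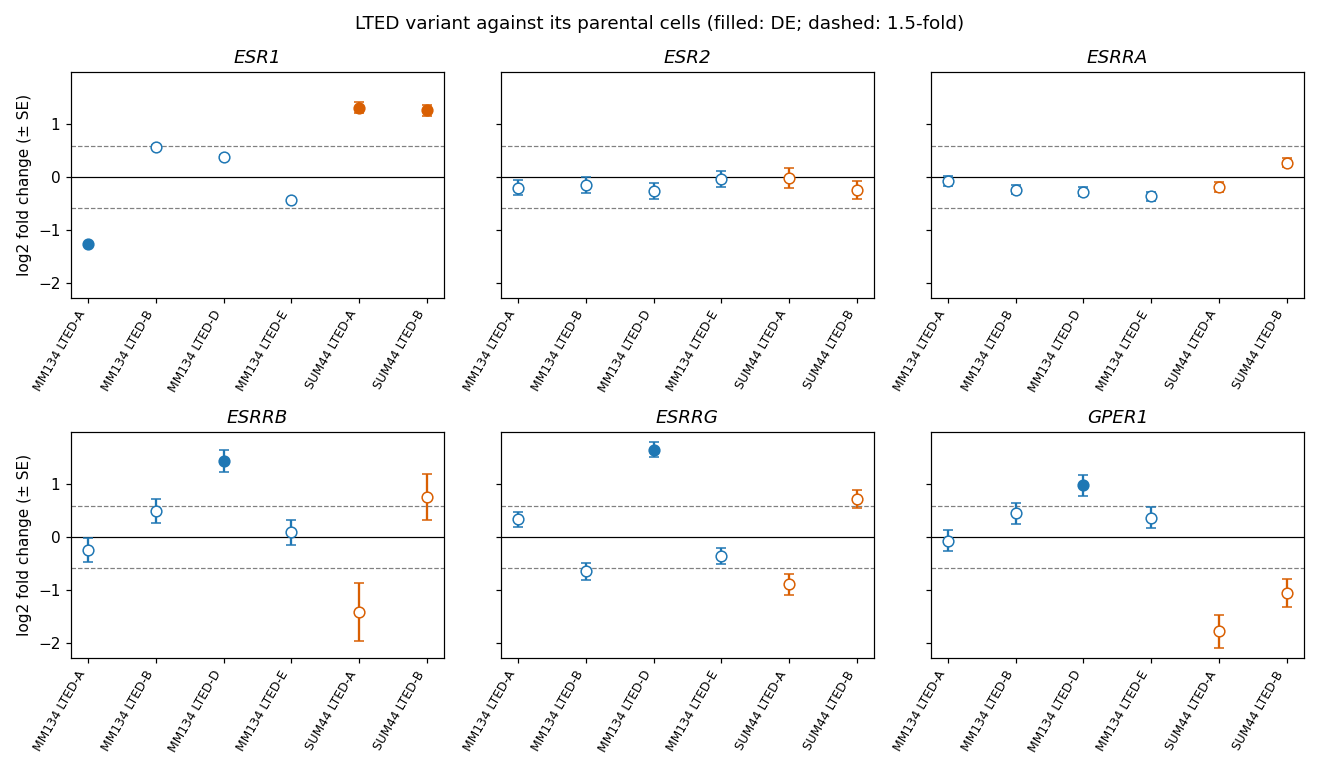
Log2 fold change of each receptor (± SE) in the 6 LTED variants against their parental cells, with filled points for DE genes and dashed lines at 1.5-fold. ESR1 is filled in MM134 LTED-A (below 0) and in both SUM44 variants (above 0), and ESRRB, ESRRG and GPER1 are filled in MM134 LTED-D.

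The make-up of the ERR family therefore differed between groups. Per kb, ESRRA made up 91.6% ± 0.349 of the 3 ERR transcripts in MM134 parental cells and 90.0% to 91.6% in LTED-A, LTED-B and LTED-E. In MM134 LTED-D its share was 74.9% ± 1.14, with ESRRG at 18.9% ± 0.915 and ESRRB at 6.23% ± 0.357 (n = 3). The ESRRG share was 17.9% to 19.5% in the libraries of LTED-D and at most 8.17% in all others. In the SUM44 groups ESRRA made up 97.9% to 99.1%. The ratio of ESR1 to the summed ERR level was 2.31 ± 0.121 in SUM44F, 6.57 ± 0.448 in SUM44 LTED-A and 4.56 ± 0.353 in SUM44 LTED-B. In MM134 it was 7.11 ± 0.494 in parental cells, 3.05 ± 0.0424 in LTED-A and 12.5 ± 0.61 in LTED-B. These shares are descriptions, and they depend on the gene lengths used.

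**Figure D4:**
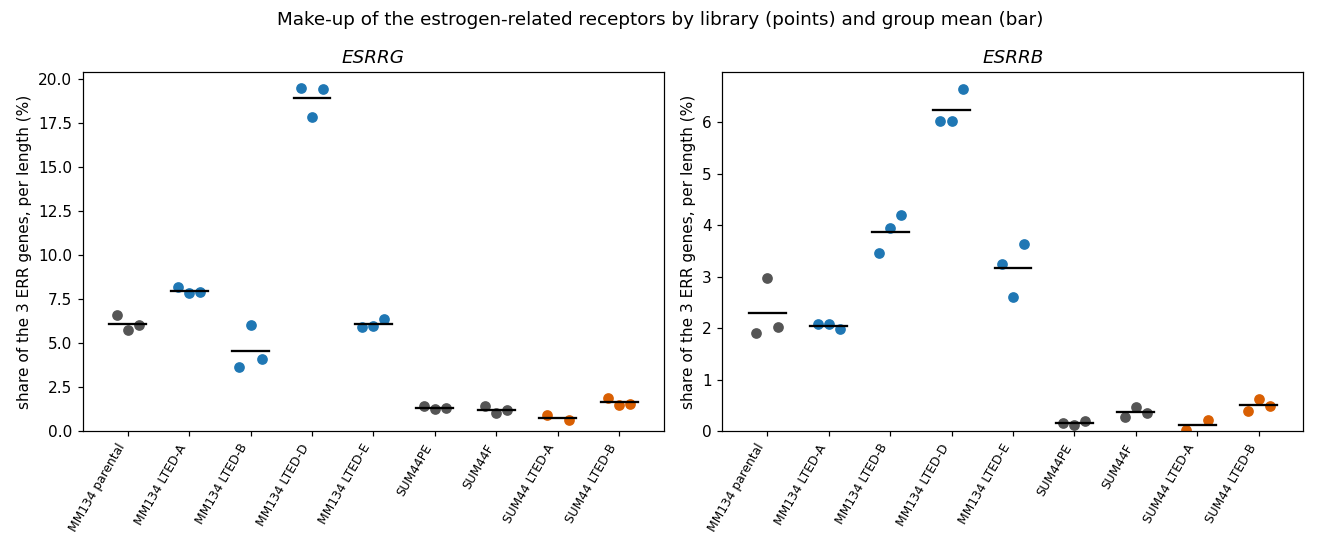
Share of ESRRG (left) and of ESRRB (right) in the summed level per kb of the 3 ERR genes, in percent, by library (points) and group mean (bars). MM134 LTED-D stands above all other groups in both panels, and the SUM44 groups lie lowest.

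GPER1 (ENSG00000164850, chr7:1082208-1093815, plus strand) was higher in SUM44 parental cells than in all other groups. Its level was 5.03, 5.21 and 3.63 CPM in SUM44F and 8.05, 7.32 and 7.78 CPM in SUM44PE. In SUM44 LTED-A it was 1.93 CPM in replicate 1 and 0.868 CPM in the mean of replicates 2 and 3, and in SUM44 LTED-B 2.11, 2.17 and 2.35 CPM. All LTED samples were below all SUM44F libraries. The log2 fold change was -1.78 ± 0.31 in LTED-A (3.43-fold lower, edgeR adjusted p = 0.00104), which missed the threshold of 0.001 narrowly, and -1.06 ± 0.26 in LTED-B (2.08-fold lower, edgeR adjusted p = 0.00668). Without SUM44F replicate 1 the values were -1.72 and -0.99. The samples of LTED-A disagreed by more than 2-fold. With each library left out in turn the value ran from -2.36, without LTED-A replicate 1, to -1.26. Leaving out replicate 1 leaves 1 sample of this variant, so no call is drawn from that fit. DESeq2 called both variants, at -1.76 (adjusted p = 1.02e-08) and -1.02 (adjusted p = 2.05e-04). None of the 34 neighbouring genes fell as far as GPER1 in either variant, with medians of 0.19 and 0.16.

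In MM134, GPER1 was lower to begin with, at 0.857, 1.08 and 0.874 CPM in parental cells (4.94-fold lower than SUM44F, log2 -2.31 ± 0.23, edgeR adjusted p = 1.05e-08, and -2.24 without SUM44F replicate 1). LTED-D held 2.23, 1.40 and 1.88 CPM, all above the parental range. Its log2 fold change there was 0.97 ± 0.19 (1.96-fold, edgeR adjusted p = 2.89e-04). This call rested on single libraries: without parental replicate 1 or 3, or LTED-D replicate 1 or 3, the value was 0.83 to 0.95 with an adjusted p of 0.00158 to 0.00231 in edgeR, and it was not called. The genes around GPER1 on distal 7p were also higher in LTED-D, with a median of 0.39 over 33 neighbours, 30 of which had a smaller change than GPER1. LTED-B (1.34, 1.32 and 1.17 CPM) lay above the parental range with 0.45 ± 0.20 (edgeR adjusted p = 0.0702), and LTED-A and LTED-E overlapped it. For GPER1 the effect in MM134 less the one in SUM44 was 1.84 ± 0.28 on the log2 scale (edgeR adjusted p = 7.39e-06), or 1.78 without SUM44F replicate 1. GPER1 therefore differed between the lines in the direction opposite to ESR1. For GPER1 too, the SE and p-value leave out the spread among variants. Its log2 fold change in MM134 ran from -0.07 in LTED-A to 0.97 in LTED-D.

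The parental SUM44 cultures were compared with each other, since SUM44F had been through a change of medium. ESR1 was at 853, 861 and 862 CPM in SUM44PE, above all SUM44F libraries. The log2 difference was 0.58 ± 0.08 (1.49-fold, edgeR adjusted p = 1.62e-04), at the fold limit. It was called without SUM44PE replicate 1 (0.60) or SUM44F replicate 2 (0.61), among others, but not without SUM44F replicate 1 (0.59, edgeR adjusted p = 0.00109). GPER1 was 1.66-fold higher in SUM44PE (log2 0.73 ± 0.21, edgeR adjusted p = 0.0253) and ESRRB was lower (log2 -1.48 ± 0.50, edgeR adjusted p = 0.0503). In this comparison 0 of 6 receptors were DE, against 5.57% of all genes. With SUM44PE as the reference in place of SUM44F, GPER1 was DE in both SUM44 variants, at -2.50 (edgeR adjusted p = 1.01e-05) and -1.77 (edgeR adjusted p = 2.53e-05), and ESR1 remained DE in both.

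The supply of ligand was examined in 11 genes of estrogen synthesis and inactivation. For this list and those that follow, the background is the share of all genes tested that were DE in a direction, which was 8.11% to 10.5% upward and 7.75% to 10.3% downward over the MM134 variants, 6.39% and 7.28% in SUM44 LTED-A and 8.69% and 8.57% in SUM44 LTED-B. In MM134, of the 8 that could be tested, 2 or 3 were DE upward in each variant and at most 1 downward, and in SUM44, of 11, 1 or 2 were DE upward and 3 downward in each variant. HSD17B2, whose product turns estradiol into the weaker estrone, stood at 4.13 ± 0.505 CPM in parental MM134 and rose in all 4 variants, most in LTED-A (88.2 ± 0.939 CPM) and least in LTED-D (18.6 ± 0.72 CPM). It fell in both SUM44 variants, from 8.79 ± 0.542 CPM to 2.65 ± 0.73 and 2.78 ± 0.221. STS, which frees estrone from its sulfate, rose in 5 of the 6 variants and most in MM134 LTED-A (log2 fold change 2.98). In LTED-D it had a value of -0.54 and was not DE. CYP1B1, which hydroxylates estradiol, fell in MM134 LTED-B and LTED-D (-1.20 and -1.33) and rose in SUM44 LTED-B (0.78). Aromatase, CYP19A1, had 0.186 ± 0.0475 CPM in parental MM134 and 3.62 ± 0.285 in SUM44F.

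Of 14 genes for partners of ERα, 4 were DE downward in MM134 LTED-A, 3 in LTED-E and 1 in each of the other 4 variants, where 1 of 14 is near the background. NRIP1, a corepressor that ERα itself induces, fell in all 4 MM134 variants (log2 fold change -0.82 to -1.24), and in SUM44 it had 0.41 and 0.27 and was not DE. GATA3, a luminal transcription factor that binds with ERα, fell in MM134 LTED-A and LTED-E, the variants with less ESR1 (-0.65 and -1.01), and in SUM44 it rose in both variants (1.08 and 0.85), but in neither was it DE without SUM44F replicate 1 (1.04 and 0.81). NCOA3, a coactivator, fell in MM134 LTED-A (-0.64) and in both SUM44 variants (-0.65 in LTED-A). The pioneer factor FOXA1 was at 365 to 687 CPM in every library and was DE only in SUM44 LTED-A (0.67), and there not without SUM44F replicate 1 (0.69). Upward, 3 of 14 were DE in SUM44 LTED-A and 4 in LTED-B. Without SUM44F replicate 1 these counts were 0 and 3, the lost calls being GATA3 in both variants and FOXA1 and PELP1 in LTED-A.

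Genes that estrogen induces moved both ways in the MM134 variants and mostly upward in the SUM44 variants against SUM44F. Of 15 such genes, 3 were DE upward and 7 downward in MM134 LTED-A, 5 and 5 in LTED-B, 4 and 5 in LTED-D and 3 and 5 in LTED-E, with medians of -0.30 to -0.56 on the log2 scale, against -0.028 to 0.021 over all genes tested. In SUM44, 7 rose and 1 fell in LTED-A and 8 rose and 1 fell in LTED-B, with medians of 0.40 and 0.80, against -0.057 and -0.093 over all genes. Without SUM44F replicate 1, 7 rose and 2 fell in each of the variants, of 14 tested, with PGR newly DE in both and EGR3 no longer DE in LTED-B. In SUM44PE against SUM44F, 7 of the 15 were also DE upward and 0 downward, where 5.57% of all genes were DE. Their median was 0.70, against -0.021 over all genes. The rise over SUM44F was thus not particular to the LTED variants, and the list was not tested against SUM44PE. TFF1, a secreted trefoil peptide and long-used marker of estrogen response, rose in all 6 variants. It was at 4.31 ± 0.00524 CPM in MM134 parental cells, 594 ± 31.3 in LTED-A, 2430 ± 85.1 in LTED-D and 1020 ± 33.7 in LTED-E, and its log2 fold change in LTED-B was 7.04. IGFBP4 and XBP1 rose in all 6 variants too, by 0.97 to 1.70 and 0.93 to 2.01 on the log2 scale. These SUM44 values are against SUM44F. XBP1 was at 742 ± 34.8 CPM in SUM44PE, above SUM44 LTED-B (653 ± 8.28) but below SUM44 LTED-A (1220 ± 184). TFF1 (84.2 ± 7.06 CPM) and IGFBP4 (53.0 ± 2.54 CPM) in SUM44PE were below both SUM44 variants. PGR, which encodes the progesterone receptor, fell in all 4 MM134 variants (-2.17 to -4.33). It was at 9.54, 1.33 and 1.52 CPM in the SUM44F libraries, highest in the one with fibroblast markers, and at 0.164 ± 0.0828 in SUM44 LTED-A and 0.128 ± 0.128 in LTED-B. With all libraries its adjusted p in edgeR was 0.00454 and 0.00122, above the threshold, and without SUM44F replicate 1 it was DE downward in both variants (log2 fold change -3.29 and -3.64). GREB1, a cofactor and target of ERα, fell in MM134 LTED-A (-2.05, to 17.0 ± 0.998 CPM from 70.3 ± 3.08). In LTED-E it was at 48.0 ± 0.945 CPM, a change of -0.54 that passed the adjusted p (edgeR, 1.55e-09) but was smaller than the fold limit, as was the -0.25 of LTED-D (4.41e-05). PGR, GREB1, CYP19A1, FOXA1, PELP1, EGR3, ELF3, GNAS and ATF3 were named after their values were seen.

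**Figure D5:**
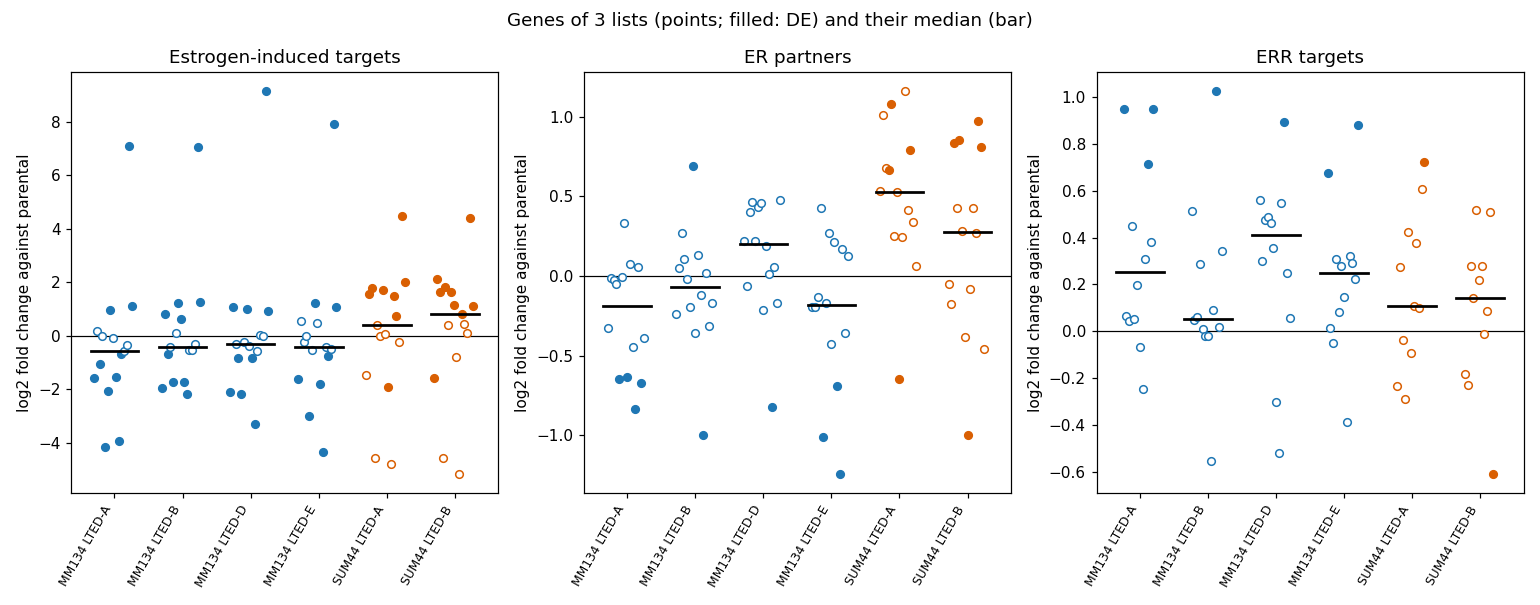
Log2 fold change against parental cells of the estrogen-induced genes, the partners of ERα and the ERR target genes (points, filled where DE) with the median of each list (bars), for the 6 LTED variants. TFF1 is the highest point in each column of the left panel, and the medians of that panel lie below 0 in the 4 MM134 variants and above 0 in the SUM44 variants.

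Among 3 coactivators through which the ERRs act, only PPARGC1A was DE in opposite directions in the cell lines. PPARGC1B, which encodes PGC-1β, fell in both SUM44 variants, from 19.1 ± 1.39 CPM in SUM44F to 3.68 ± 0.486 in LTED-A and 1.65 ± 0.086 in LTED-B, and in MM134 LTED-B and LTED-E. PPARGC1A, which encodes PGC-1α, fell in both SUM44 variants against SUM44F (log2 fold change -0.88 and -1.73). It rose in MM134 LTED-A and LTED-D (0.82 and 1.04). In SUM44PE against SUM44F 2 of the 3 coactivators were also DE downward, where 5.57% of all genes were DE. PPARGC1A was at 24.8 ± 1.27 CPM in SUM44PE, not above SUM44 LTED-A (26.3 ± 0.285) but above LTED-B (14.6 ± 1.33). PPARGC1B was at 9.77 ± 0.654 CPM in SUM44PE, above both SUM44 variants. PPRC1, a related coactivator, was DE upward only in SUM44 LTED-A (0.93). Of 12 ERR target genes, 1 to 3 were DE upward in each MM134 variant and 0 downward, and their medians were 0.05 to 0.41. At this list size 1 of 12 is near the background. In LTED-D the 1 gene DE upward was PDK4 (0.89), whose kinase holds back pyruvate oxidation, and the median was 0.41. PDK4 was also DE in LTED-A (0.71) and LTED-B (1.03). It was at most 0.0891 CPM in the SUM44 groups. VEGFA rose in MM134 LTED-A, MM134 LTED-E and SUM44 LTED-A and fell in SUM44 LTED-B (-0.61). ACADM, which encodes a dehydrogenase of fatty acid oxidation, rose in MM134 LTED-A and LTED-E (0.95 and 0.67).

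Of 7 genes downstream of GPER1, 5 could be tested in MM134 and 6 in SUM44. FOS, an immediate early transcription factor, fell in all 6 variants (-1.29 to -2.21), including MM134 LTED-D, where GPER1 was higher. EGR1, another immediate early factor, fell in MM134 LTED-B (-1.10) and in both SUM44 variants (-2.73 and -2.43). HBEGF, a ligand of the EGF receptor, fell in MM134 LTED-D (-1.42) and in both SUM44 variants (-3.26 and -2.86). Counts were low, at 8 to 17 per library for HBEGF in MM134 LTED-D. In the SUM44 variants they were 10 to 28 for HBEGF and 12 to 24 for EGR1. SUM44PE held 0.896 ± 0.218 CPM of HBEGF, against 2.15 ± 0.197 in SUM44F. In the SUM44 variants 3 of 6 were thus DE downward in each, also without SUM44F replicate 1. In MM134, of 5, 1 was DE downward in LTED-A and 2 in each of LTED-B, LTED-D and LTED-E. Upward, GNAS, which encodes the G protein subunit that activates adenylyl cyclase, was DE in MM134 LTED-D (0.85). ATF3, a stress-induced transcription factor, was DE upward in SUM44 LTED-A (0.83), but not without SUM44F replicate 1 (0.87), and was DE downward in MM134 LTED-E (-0.64).

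Genes whose pattern over the 9 group means was most like that of a receptor were ranked by Pearson's r of log2(CPM + 1), after subtraction of the mean of each line's groups, among 11199 protein-coding genes averaging 5 CPM or more. For ESR1 the closest were POLN (r = 0.924), USP13 (0.891), MACF1 (0.888), KCNH1 (0.886) and HPS6 (0.883). The closest was MED25 (0.976) for ESRRA, GTPBP10 (0.937) for ESRRG, ADCY1 (0.985), an adenylyl cyclase gene, for GPER1, WTAP (0.97) for ESR2 and GPRASP3 (0.975) for ESRRB. With a pseudocount of 0.1, all 5 genes closest to ESR1 and to ESR2 stayed among the closest, but 1 of 5 did for ESRRB and 2 of 5 for GPER1. ESR2 was low and nearly flat, with a spread near that of counting alone, so its unchanged list is not firmer for that. The 9 points share parental cultures, and with so many candidates values of this size can arise without any link.

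The promoter windows of the members, 250 bases before to 50 after each transcription start of RefSeq (GRCh38.p14), were searched on both strands for the core motif AGGTCA that estrogen receptors and ERRs bind. It occurred in 5 of 25 windows, against 13.8% of all 35116 windows, and these were 3 windows of ESR2 and 2 of ESRRG. A pair of the ESR2 windows overlap and hold the same site, so that the 5 windows hold 4 sites. The longer ERR motif TCAAGGTCA (0.353% of all windows) and the palindromic estrogen response element (0.057%), which overlap that core, occurred in 0 of 25. The ESRRG window with the motif nearest to a start is shown because ESRRG had the largest range among the variants, with the 250 bases before the start (chr1:217076993-217077242, minus strand) and the motif, which begins 60 bases before the start, in capitals.
ESRRG promoter window: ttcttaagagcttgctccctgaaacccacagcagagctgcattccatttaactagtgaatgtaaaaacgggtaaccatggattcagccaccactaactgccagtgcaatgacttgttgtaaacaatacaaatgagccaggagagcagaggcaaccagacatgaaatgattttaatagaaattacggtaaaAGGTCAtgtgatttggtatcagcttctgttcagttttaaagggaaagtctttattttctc
ESRRG has 8 such windows, and the gene-level counts do not tell which start was used.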

How the data were processed

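RNA was sequenced from 27 libraries in 9 groups, as the labels give them. Per the labels and the study's methods, libraries were made with a stranded total RNA kit, and the authors estimated counts per gene with Salmon 0.6.0 on hg38 and Ensembl release 82. The deposited estimated counts are scaled neither for depth nor for length. They were rounded, filtered (filterByExpr), scaled by TMM and tested with edgeR 4.0.16 in R 4.3.3 (two-sided quasi-likelihood tests with Benjamini-Hochberg adjustment over all genes). There was 1 fit of the MM134 groups, 1 of SUM44F and the SUM44 variants, 1 that added SUM44PE and 1 of both lines. Levels are CPM, and totals per library (28583554 to 134882175) set their precision. Symbols, positions and lengths are from GENCODE v44, by Ensembl ID (56434 of 60619 matched). The tests were run on simulated data first. Alternatives were another filter, DESeq2 1.42.0, RLE scaling, an adjusted p under 0.05, a replicate block, other treatment of SUM44PE and of the near-identical libraries, and each library left out. All 6 members are named, and up to 3 genes per list, those DE in most variants and then by mean fold change. The members and lists were chosen with earlier results of these data known. Figures were drawn with matplotlib 3.10.9.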

Additional observations from a re-analysis of the deposited data

Results flagged for a closer look

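The effect of LTED differed between the cell lines for 2 of 6 receptors by the test of the difference itself in edgeR. In that test 20.9% of all genes passed. The mean of the SUM44 variants was subtracted from the mean of the MM134 variants, and the spread among variants was not part of the error. For ESR1 the difference of log2 fold changes was -1.47, and for GPER1 it was 1.84.

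Among the 4 MM134 variants, the test of equality passed for 4 of 6 receptors, against 19.6% of all genes. From the lowest to the highest variant the log2 fold change spanned 1.84 for ESR1, 1.67 for ESRRB, 2.29 for ESRRG and 1.04 for GPER1. LTED-D was the highest for the last 3, and LTED-B for ESR1. The call of GPER1 was lost without any 1 library of LTED-A and without some libraries of LTED-D. Between the SUM44 variants ESRRG differed by -1.60 (LTED-A minus LTED-B), the 1 receptor of 6 called there, against 7.42% of all genes. That call was lost without any 1 library of LTED-B. With groups of 3 libraries or fewer, single libraries were not tested as outliers.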

How the results depend on the processing

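Of 1392 values of the receptors' log2 fold changes under other settings, 1324 kept their direction and their side of the threshold, 34 passed it newly, 15 no longer passed it and 19 changed sign, all of these on values that were not DE. The replicate numbers of the labels did not pair the samples (0 of 30 same-numbered pairs in MM134 and 3 of 18 in SUM44 had a correlation of deviations over 0.1). With the replicate number as a block, GPER1 among the MM134 variants (1.05, edgeR adjusted p = 0.0013) was lost and no other receptor's call changed.

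Without a filter on low counts, ESRRG in MM134 LTED-B (-0.66), GPER1 in SUM44 LTED-A (-1.76) and LTED-B (-1.04) and ESR1 between SUM44PE and SUM44F (0.60) were called. With at least 10 counts in every sample, GPER1 in SUM44 LTED-A (-1.80) and ESR1 in SUM44PE (0.60) were called, and ESR2 between the lines changed sign (0.020). DESeq2 called ESRRG in MM134 LTED-B (-0.66), GPER1 in SUM44 LTED-A (-1.76) and LTED-B (-1.02) and ESR1 in SUM44PE (0.59), and ESR2 in SUM44 LTED-A changed sign (0.0022). RLE scaling called GPER1 in SUM44 LTED-A (-1.75) and ESR1 in SUM44PE (0.59), and ESR2 in SUM44 LTED-A changed sign (0.0075). At an adjusted p under 0.05, ESRRG in MM134 LTED-B (-0.65) and in SUM44 LTED-A (-0.89) and LTED-B (0.71), GPER1 in SUM44 LTED-A (-1.78), LTED-B (-1.06) and SUM44PE (0.73), and ESRRB between the SUM44 variants (-2.16) were called. DE genes then numbered 6386 in SUM44 LTED-A (3669 at 0.001), 7895 in LTED-B (4632), 3881 between these (1990) and 2871 in SUM44PE (1530). With replicates 2 and 3 of SUM44 LTED-A kept separate, ESRRG (-0.92) and GPER1 (-1.97) were called there, and with SUM44PE added to the fit GPER1 was (-1.77). With SUM44PE as the parental cells, GPER1 in SUM44 LTED-A (-2.50) and LTED-B (-1.77) and ESRRG in LTED-B (0.86) were called, and in LTED-A ESRRA (0.10) and ESRRB (0.10) changed sign. Apart from the thresholds' own effect, the causes were not tested.

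Leaving out each library in turn gave 0.54 to 0.59 for ESR1 in MM134 LTED-B, 0.57 to 0.61 in SUM44PE, -0.93 to -0.51 for ESRRG in MM134 LTED-B, -1.71 to -1.47 between the SUM44 variants, 0.83 to 1.13 for GPER1 in MM134 LTED-D, 0.89 to 1.20 among the MM134 variants, -2.36 to -1.26 in SUM44 LTED-A and -1.21 to -0.96 in LTED-B. Sign changes occurred for ESR2 between the lines (-0.12 to 0.067), in MM134 LTED-E (-0.13 to 0.047) and in SUM44 LTED-A (-0.13 to 0.11), ESRRB in MM134 LTED-A (-0.40 to 0.022) and LTED-E (-0.069 to 0.35), ESRRG between MM134 parental cells and SUM44F (-0.042 to 0.23) and in SUM44PE (-0.21 to 0.051), and GPER1 in MM134 LTED-A (-0.13 to 0.049). DE genes between the SUM44 variants numbered 1104 to 2084. Depth limits ESRRB most, with as few as 17 counts in a group.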
